A study of Canis lupus familiaris with 23 samples.

Results

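The 100 genes with the highest mean abundance in healthy canine gingiva were followed into 2 oral tumors of the dog. They were chosen from the 30951 genes of the deposited count table by their mean CPM (a gene's count divided by the library total and multiplied by 1e6) over the 7 gingiva libraries. All 100 passed the low-count filter, which kept 15716 genes. Since the gingiva values chose the genes, their gingiva levels, and every difference from gingiva below, are descriptions without a test. The comparison of the tumors with each other sets no gingiva level against a tumor level and was tested. Its model was fitted to all 23 libraries, so the gingiva libraries enter the scaling, the filter and the estimate of spread. CPM is not corrected for gene length, so a long gene reaches a high rank more easily than a short one with as many transcripts. The table gives Ensembl identifiers, 0 of which matched the gene table used for names. Genes are therefore called by their rank in gingiva (rank 1 is the most abundant), with 2 identifiers per direction for each comparison.

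The series holds 7 libraries of healthy gingiva, 5 of canine acanthomatous ameloblastoma (CAA) and 11 of canine oral squamous cell carcinoma (COSCC), all bulk RNA from dogs of mixed or named breeds. No treatment, genotype or age is given. Each sample also carries a code, FS or MC. Gingiva had 4 FS and 3 MC samples, CAA 2 FS and 3 MC, and COSCC 6 FS and 5 MC. Of the tumors, 3 CAA and 7 COSCC came from the maxilla and 2 CAA and 4 COSCC from the mandible, while the jaw was undetermined for 6 gingiva samples. Total counts lay between 15120326 and 16813220 per library. Nothing in the labels ties any of the samples to the same dog or says that each is a separate dog, so p-values measure the spread between these samples. Unless marked as SE, a value after ± is the SD over the libraries of the group (n = 7 for gingiva, 5 for CAA and 11 for COSCC).

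Gingiva is the mucosa around the teeth, a keratinizing stratified squamous epithelium on a dense collagen-rich connective tissue. In such epithelium a small number of structural genes is transcribed at very high levels, and the set in use changes as cells leave the basal layer and mature. CAA is a locally invasive tumor of odontogenic epithelium, the epithelium that forms teeth, and COSCC is a malignant tumor of the oral squamous epithelium. A bulk library mixes epithelium, connective tissue and blood cells, so fewer cells of a type and less RNA per cell cannot be told apart.

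Abundance in gingiva was concentrated in very few genes. The rank 1 gene averaged 72483 ± 18576 CPM (SD, n = 7) and the rank 2 gene 40265 ± 17557 CPM. The rank 3 gene averaged 12658 CPM and the rank 10 gene 6123 CPM. At the edge of the choice, ranks 98, 99 and 100 averaged 877, 873 and 868 CPM, and ranks 101, 102 and 103, just outside it, 862, 861 and 847 CPM. The edge thus falls between genes of nearly the same level.

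The 100 genes held 33.1% ± 4.58 of the counts in gingiva (SD, n = 7), with 27.4% in the lowest library, a median of 33.2% and 39.002% in the highest. When the genes were chosen on 6 gingiva libraries and read in the library left out, the share was 32.8% ± 4.498 (SD, n = 7, range 27.1% to 38.6%). The share therefore changed little when a library took no part in the choice. Of the 100 genes, 45 were among the 100 most abundant genes of each of the 7 gingiva libraries taken alone. A single gingiva library had 74 to 95 of them among its own 100 most abundant genes.

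In both tumors the same genes took less of the library. The share was 18.3%, 18.3%, 16.6%, 28.5% and 21.6% in CAA replicates 1 to 5, with a mean of 20.7% ± 4.74 (SD, n = 5). CAA replicate 4 lay within the gingiva range and the other 4 CAA libraries below it. In COSCC the share ran from 17.2% through a median of 23.5% to 31.9%, with a mean of 23.7% ± 4.06 (SD, n = 11). COSCC replicate 8, at 31.9%, lay within the gingiva range, and the other 10 COSCC libraries were below the lowest gingiva library. Wilson 95% intervals of these shares reached at most 0.0245 percentage points to either side and cover counting error alone. The ranges of CAA and COSCC overlapped. In the maxilla the share was 18.8% ± 2.51 for the 3 CAA and 24.6% ± 4.33 for the 7 COSCC libraries. In the mandible the CAA values were 18.3% and 28.5%, and COSCC averaged 22.1% ± 3.45 (SD, n = 4), so the order of the means in the mandible rests on CAA replicate 4, at 28.5%. The other mandibular CAA library, at 18.3%, was below the COSCC mean, as in the maxilla. Without CAA replicate 4 the mean over all CAA was 18.7%.

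**Figure D1:**
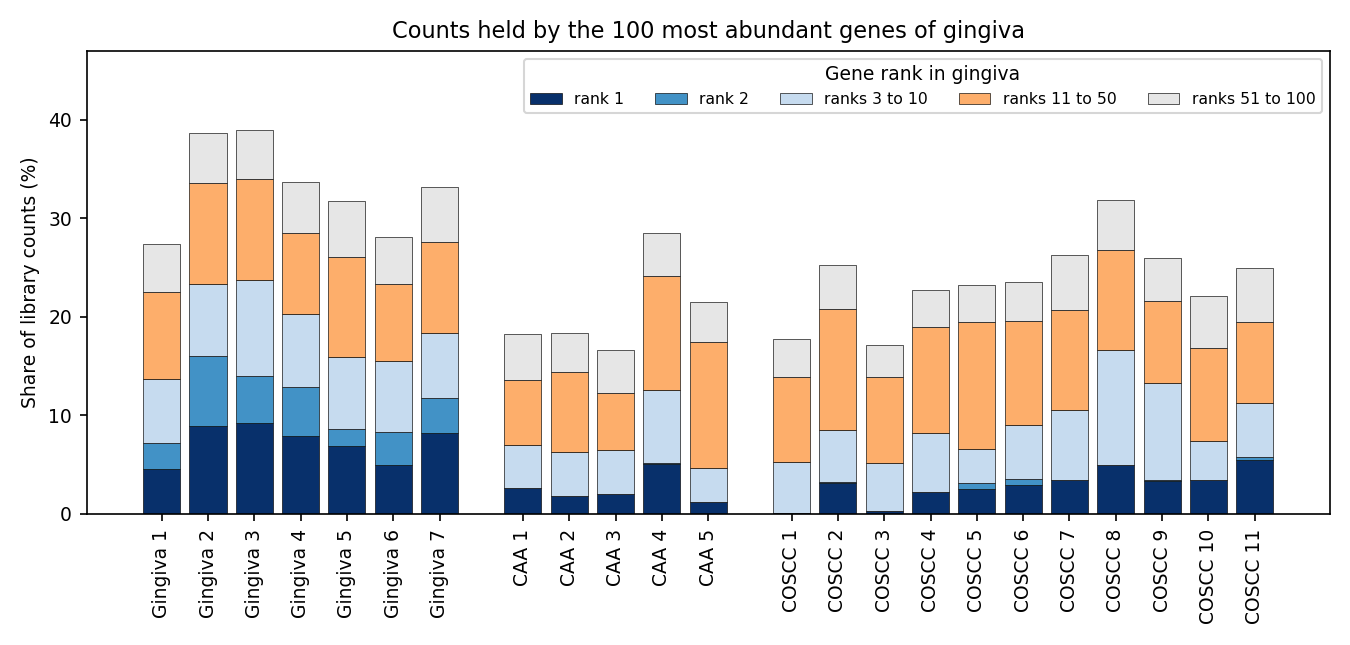
Share of each library's counts (percent, vertical axis) held by the 100 genes in 7 gingiva, 5 CAA and 11 COSCC libraries, stacked by the genes' rank in gingiva. The rank 1 and rank 2 segments make up 7.24% to 15.995% of the counts in gingiva and 0.0715% to 5.76% in the tumors.

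The lower share in the tumors came mostly from the genes of ranks 1 and 2. Together they held 11.3% ± 3.29 of gingiva counts, against 2.56% ± 1.53 for CAA and 3.06% ± 1.70 for COSCC. Of the difference in mean share from gingiva, which was -12.5 percentage points in CAA and -9.40 in COSCC, they made up 69.9% and 87.4%. The remaining genes, ranks 3 to 100, held 21.8% ± 1.84 of gingiva counts, 18.1% ± 3.66 of CAA counts and 20.7% ± 2.81 of COSCC counts. They spanned 19.8% to 24.961% over gingiva libraries, 14.6% to 23.4% over CAA and 16.8% to 26.9% over COSCC. The groups thus overlapped, as they did with all 100 genes. The COSCC median, 20.1%, now lay within the gingiva range, and the CAA median, 16.6%, still below it. The sum hides movements both ways. In COSCC 69 genes had a lower mean CPM than in gingiva, worth -15.3 points, and 31 a higher one, worth 5.88 points. In CAA 70 genes had a lower mean, worth -16.7 points, and 30 a higher one, worth 4.27 points. Of the points lost, before gains are set against them, ranks 1 and 2 made up -8.72 in CAA and -8.21 in COSCC.

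The order of abundance was partly kept. Of the 100 genes, 61 were also among the 100 genes of highest mean CPM in CAA and 69 among those in COSCC. These included 53 in both tumors and 23 in neither, 8 in CAA alone and 16 in COSCC alone. The 100 most abundant genes of CAA and of COSCC shared 73 genes, 53 of them from the gingiva list. Both tumors kept 9 of the 10 most abundant gingival genes in their top 100, CAA losing rank 2 and COSCC rank 4. Beyond place 1000 fell 9 genes in CAA (ranks 2, 29, 30, 47, 50, 65, 88, 89 and 95) and 4 in COSCC (ranks 30, 47, 65 and 89). A core of 17 genes was among the 100 most abundant genes of each of the 23 libraries, and 13 of the 17 ranked between 3 and 25 in gingiva. They held 7.68% ± 1.97 of gingiva counts, 8.29% ± 2.76 of CAA counts and 9.96% ± 3.16 of COSCC counts. At the other end, 7 genes (ranks 47, 65, 77, 89, 92, 96 and 100) were among the 100 most abundant of none of the 16 tumor libraries.

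**Figure D2:**
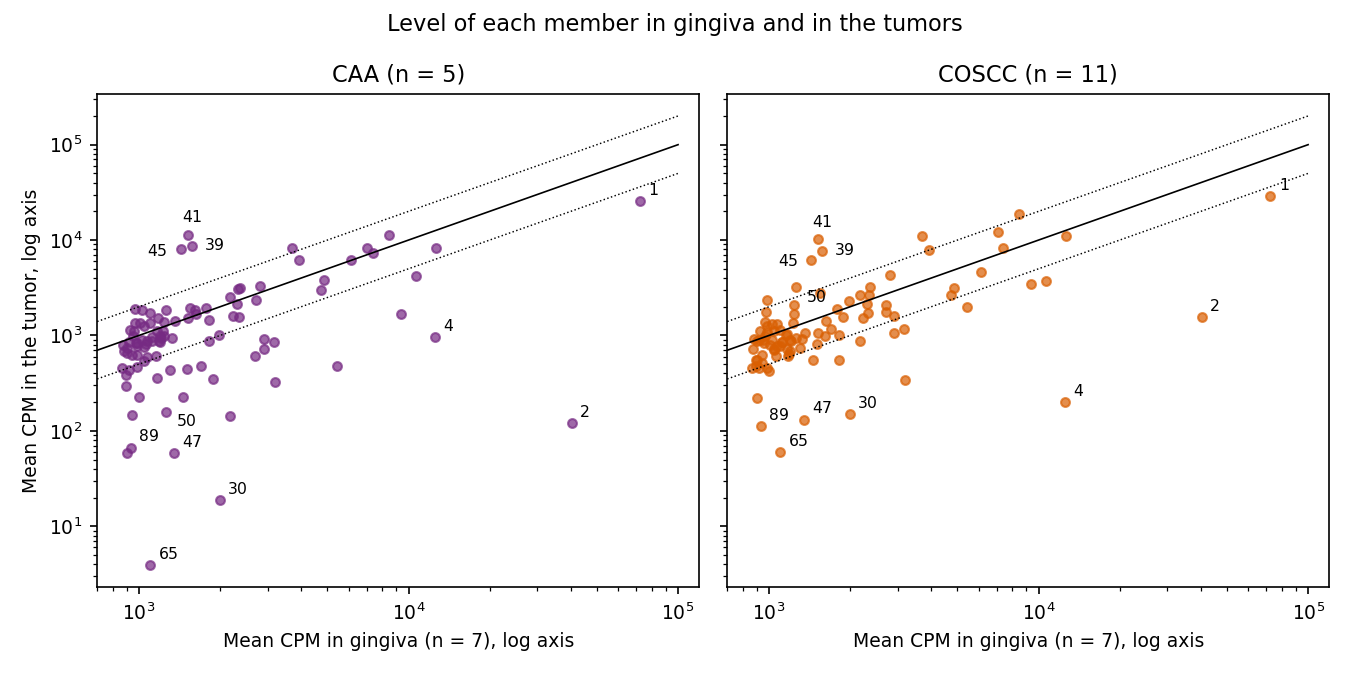
Mean CPM of each of the 100 genes in gingiva (horizontal log axis) against its mean CPM in CAA (left) and COSCC (right, vertical log axis). The solid line marks equal levels and the dotted lines a 2-fold difference, and numbers give the gingiva rank of some genes. By mean CPM, ranks 15, 39, 41 and 45 stand above the lines in both panels, and ranks 7, 50 and 81 in COSCC only. Ranks 2, 4, 30, 47, 65 and 89 stand far below.

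Fitted log2 differences were next read for each gene, from an edgeR model of all 23 libraries with composition scaling (TMM). The median over the 100 genes was -0.75 in CAA against gingiva and -0.62 in COSCC against gingiva, beside 0.04 and 0.14 over all 15716 genes. Scaled by library totals alone, the medians of the 100 genes were -0.35 and -0.42, beside 0.41 and 0.35 over all genes. Choosing genes for high gingiva values favours lower values elsewhere. The contrasts also share the gingiva libraries. In CAA 39 genes were at least 2-fold lower than in gingiva, 3 at least 2-fold higher and 58 within 2-fold, beside 10.8%, 18.2% and 71.1% of all genes tested. In COSCC the numbers were 31, 5 and 64, beside 7.44%, 20.1% and 72.4%. Within 2-fold in both tumors were 51 genes, and at least 2-fold lower in both were 25. At least 2-fold lower in CAA and within 2-fold in COSCC were 13, and the reverse 6. The share of all genes in these joint classes was not computed, so nothing is read from the joint counts.

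With an adjusted p under 0.05 (edgeR, Benjamini-Hochberg over all genes), 33 genes were lower in CAA than in gingiva and 2 higher (ranks 41 and 75), where 10.8% and 13.8% of all genes passed, 24.6% in either direction. In COSCC 45 were lower and 2 higher (ranks 39 and 41), where 13.5% and 20.1% of all genes passed, 33.7% in either direction. With library totals alone the counts were 28 lower and 6 higher in CAA, beside 5.31% and 25.2% of all genes, and 30 lower and 8 higher in COSCC, beside 6.66% and 28.4%. Since the gingiva libraries chose the genes, nothing is read from these counts. The lowest gingiva library was above the highest CAA library in CPM for 24 genes, against 3.15% of all genes, and above the highest COSCC library for 7, against 0.713%. The reverse held for 1 gene in CAA (rank 75), against 15.3% of all genes, and for 0 in COSCC, against 2.26%. All 7 genes that lay below gingiva in COSCC (ranks 2, 4, 16, 34, 47, 65 and 77) were also among the 24, so that they lay below each gingiva library in all 16 tumor libraries. Together these 7 held 6.13% ± 2.05 of gingiva counts, 0.256% ± 0.0749 of CAA counts and 0.326% ± 0.313 of COSCC counts. They were picked for lying below gingiva, so a lower share in the tumors follows from the choice. The share of all genes that lay below gingiva in all 16 tumor libraries was not computed, so nothing is read from the 7.

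The rank 1 gene stayed the most abundant gene by mean CPM in both tumors, at a lower level. It ran from 45559 through a median of 79599 to 92194 CPM in gingiva. In CAA replicates 1 to 5 it stood at 25895, 17821, 20498, 50941 and 12140 CPM, and in COSCC it ran from 675 through 31206 to 54966 CPM. CAA replicate 4 and COSCC replicates 8 and 11 reached into the gingiva range. COSCC replicates 1 and 3, at 675 and 2982 CPM, were far below the other 9 COSCC libraries, of which the lowest had 21906 CPM. These 2 libraries also had the smallest COSCC shares of the 100 genes, 17.8% and 17.2%. The fitted log2 difference from gingiva was -1.87 in CAA and -1.47 in COSCC.

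The rank 2 gene, ENSCAFG00000007322, was the gene with the largest fitted deficit in CAA and the second largest in COSCC. In gingiva it ran from 17568 through a median of 35470 to 70773 CPM. The CAA libraries had 21.3, 29.6, 47.3, 477 and 32.2 CPM in replicates 1 to 5. In COSCC it ran from 15.05 through 455 to 6280 CPM. All tumor libraries lay below the lowest gingiva library, and the COSCC libraries differed from each other by over 100-fold. The fitted log2 difference from gingiva was -8.63 ± 1.66 in CAA (SE) and -4.98 ± 0.99 in COSCC (SE), and -10.76 in CAA without CAA replicate 4. Its place among all genes by mean CPM was 1654 in CAA and 38 in COSCC.

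The rank 4 gene, ENSCAFG00000016017, had the largest fitted deficit in COSCC. It ran from 6757 through 11608 to 18053 CPM in gingiva. The CAA libraries had 585, 1224, 2083, 306 and 618 CPM in replicates 1 to 5. In COSCC 8 libraries were under 10 CPM, and COSCC replicates 5, 6 and 11 had 1563, 368 and 248 CPM, with a median over all of 4.74 CPM. Of these 3, replicates 5 and 6 were within the CAA range and replicate 11 just under it. The fitted log2 difference from gingiva in COSCC was -6.23 ± 1.32 (SE), and -7.77 without COSCC replicate 5. Over 31 alternative settings it ran from -10.89 to -5.96, so its size depended on the method.

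Ranks 65 and 30 were also uneven between carcinomas. The rank 65 gene, ENSCAFG00000011927, had 505 to 1568 CPM in gingiva, with a median of 1086 CPM. In CAA it had 1.56, 1.33, 3.36, 12.7 and 0.687 CPM in replicates 1 to 5, the lowest resting on 11 counts. In COSCC it ran from 0.324 through 3.70 to 242 CPM, with 5 counts in the lowest library, and replicates 2, 5 and 11 were above 100 CPM. Its fitted log2 difference in CAA against gingiva was -8.39 ± 1.83 (SE), and -9.77 without CAA replicate 4. The rank 30 gene had 597 to 2734 CPM in gingiva and 2.57 to 63.5 CPM in CAA. In COSCC it was above 100 CPM in replicates 5, 6, 10 and 11 and under 10 CPM in 6 libraries.

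**Figure D3:**
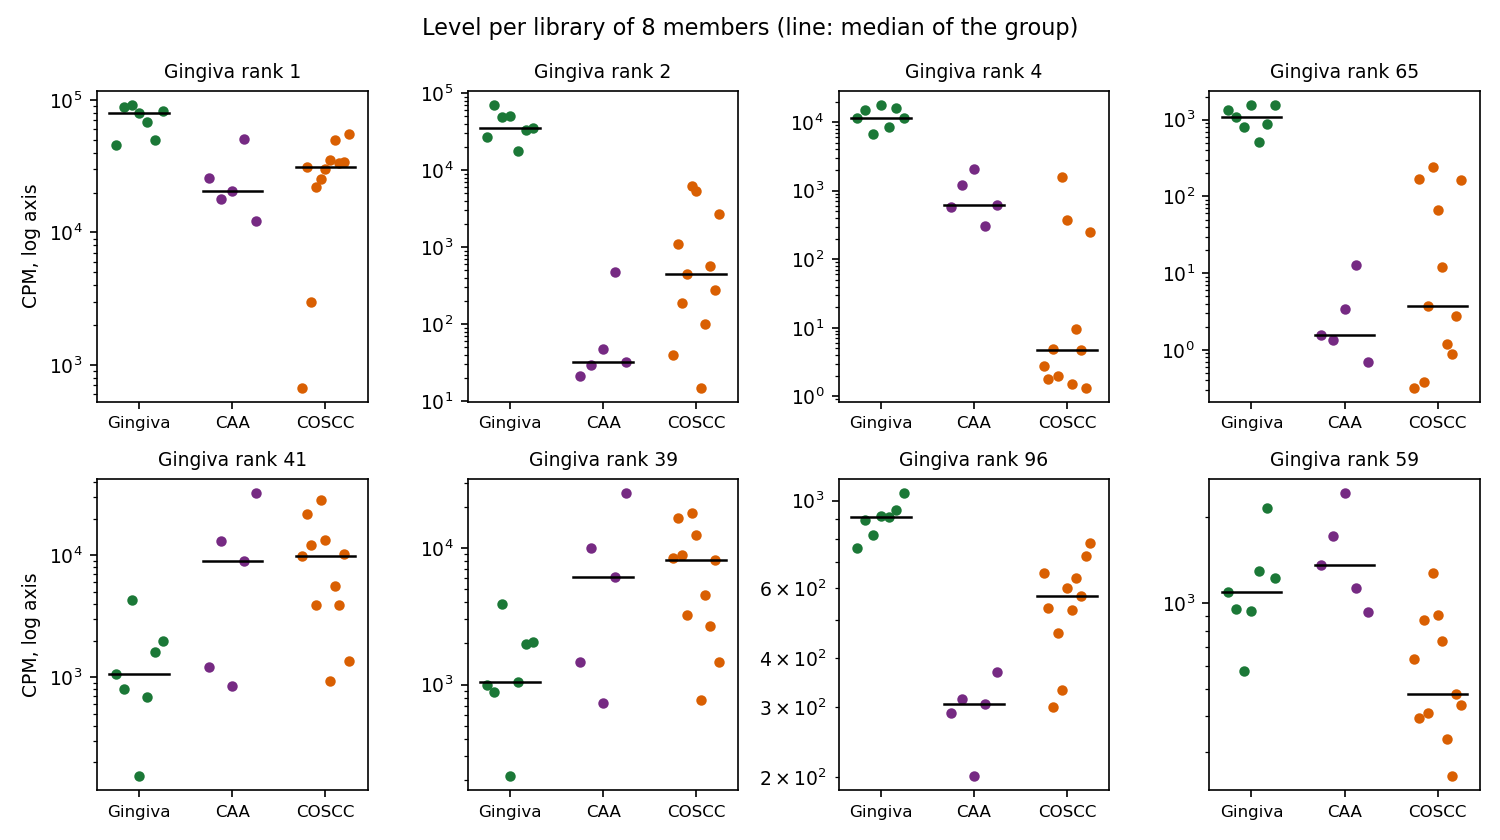
CPM per library (vertical log axis, a point per library in order of replicate number, line at the group median) of 8 of the 100 genes in gingiva (n = 7), CAA (n = 5) and COSCC (n = 11). Ranks 2, 4 and 65 lie below gingiva in each tumor library, ranks 41 and 39 have medians above gingiva in both tumors, and ranks 96 and 59 are genes that differed between the tumors.

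Of the 100 genes, 3 were at least 2-fold higher in both tumors, ranks 39 (ENSCAFG00000002069), 41 (ENSCAFG00000017018) and 45 (ENSCAFG00000014812). Over all genes, 18.2% were at least 2-fold higher in CAA and 20.1% in COSCC, each tumor taken alone. The share higher in both was not computed. Ranks 15 and 81 were at least 2-fold higher in COSCC only, with fitted log2 differences of 1.33 ± 0.56 and 1.15 ± 0.87 (SE). In mean share of counts, ranks 39, 41 and 45 together gained 2.35 percentage points in CAA and 1.96 in COSCC. Ranks 7, 9, 14 and 15 together gained 1.09 points in CAA and 2.64 in COSCC. Rank 41 ran from 155 through 1072 to 4340 CPM in gingiva. The CAA libraries had 1220, 13078, 851, 8929 and 32449 CPM in replicates 1 to 5, and COSCC ran from 924 through 9842 to 28711 CPM. Both tumors overlapped gingiva, since CAA replicates 1 and 3 and COSCC replicates 4, 7, 9 and 11 were within the gingiva range. Its fitted log2 difference from gingiva was 2.50 ± 0.86 in CAA (SE) and 2.44 ± 0.78 in COSCC (SE). In CAA it was 1.59 without CAA replicate 5. Without gingiva replicate 3 it was 3.12 in CAA and 3.07 in COSCC.

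Ranks 39 and 45 moved with rank 41 from library to library. Rank 39 averaged 1577 ± 1211 CPM in gingiva, 8676 ± 9916 for CAA and 7734 ± 5920 for COSCC, with a fitted log2 difference of 2.01 ± 0.70 in COSCC against gingiva (SE). Rank 45 averaged 1433 ± 1114, 8010 ± 8665 and 6231 ± 6325 CPM, with a fitted log2 difference of 2.09 ± 0.83 in CAA against gingiva (SE), and 1.25 without CAA replicate 5. While rank 41 spanned a 209.5-fold range over the 23 libraries, its ratio to rank 39 within a library stayed between 0.664 and 1.59. The ratio of rank 45 to rank 39 stayed between 0.540 and 1.18. Together the 3 genes held 0.0563% to 1.19% of the counts in gingiva, 0.214% to 7.97% in CAA and 0.214% to 6.82% in COSCC. These are counts per gene, and a difference in level between the 3 may come from their lengths.

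Spread between libraries of a group was a further way in which the genes differed. The median coefficient of variation (SD over mean of CPM) of the 100 genes was 0.326 for gingiva, 0.394 for CAA and 0.476 for COSCC, beside 0.346, 0.312 and 0.482 over all genes tested. The highest library exceeded the lowest by over 10-fold for 5 genes in gingiva, 20 in CAA and 37 in COSCC, groups of 7, 5 and 11 libraries. The share of all genes with such a range was not computed, so nothing is read from these counts. The 5 in gingiva were ranks 39, 41, 45, 50 and 81. Rank 50 entered the list through 3 libraries: gingiva replicates 1, 3 and 7 had 1553, 5124 and 1956 CPM and the other 4 had 13.8 to 78.0 CPM. In COSCC it ran from 44.2 to 18116 CPM and in CAA from 9.75 to 529 CPM. The steadiest member in gingiva was rank 55, with 1028 to 1357 CPM and a coefficient of variation of 0.0961. Choosing by the median instead of the mean gingiva CPM kept 95 of the 100 genes.

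**Figure D4:**
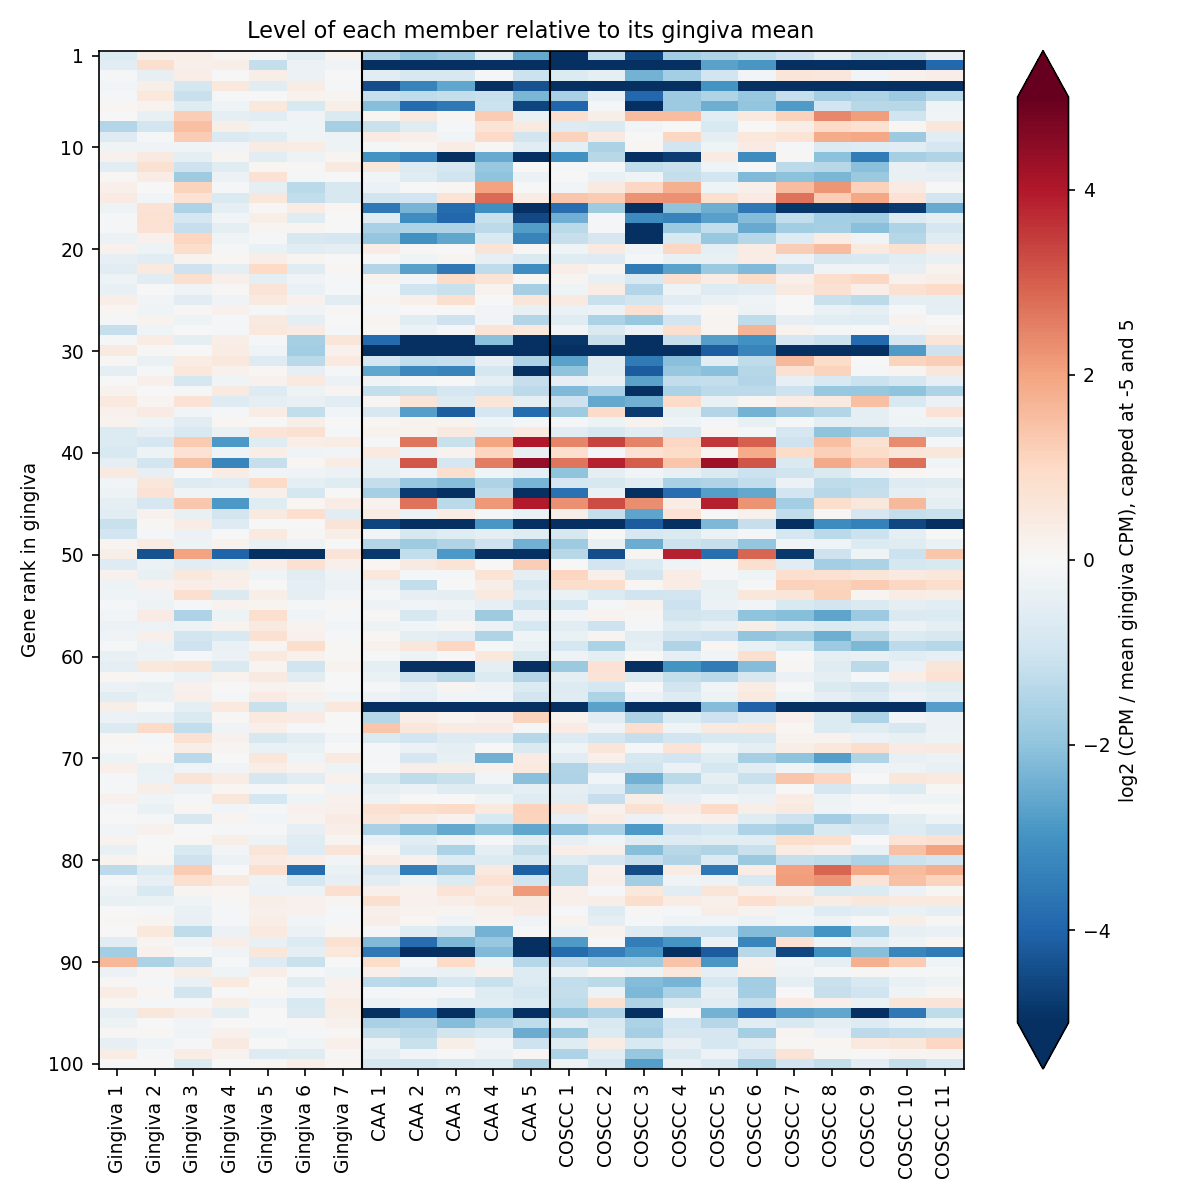
Level of each of the 100 genes (rows, by gingiva rank) in each of the 23 libraries (columns), as log2 of CPM over the gene's gingiva mean, with the color scale capped at -5 and 5. Ranks 2, 30, 47 and 65 are dark blue in many tumor libraries and paler in others, mostly of COSCC. Ranks 39, 41 and 45 form red rows in many tumor libraries, and rank 50 is uneven in gingiva itself.

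The tumors were then compared with each other, which asks whether the abundant genes of gingiva stand at different levels in CAA and COSCC. Lower in CAA with an adjusted p under 0.05 were 5 of the 100 genes, and 1 was higher (edgeR, Benjamini-Hochberg over 15716 genes). Among all genes 4.63% were lower and 4.09% higher by the same rule. The total of 6 in 100 stands beside 8.72% of all genes called, an order that turned under 4 of 32 alternatives. The median fitted log2 difference, CAA minus COSCC, was -0.25 over the 100 genes and -0.07 over all genes, and 70 of the 100 were below 0, beside 54.8% of all genes. With library totals alone the medians were -0.08 and 0.09, and 3 genes were lower and 4 higher, beside 2.94% and 4.65% of all genes, so that the balance of directions depended on the scaling.

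The clearest of the lower genes was rank 96, ENSCAFG00000012050. It had 291, 314, 201, 305 and 369 CPM in CAA replicates 1 to 5, and in COSCC ran from 300 through 573 to 780 CPM. In gingiva it ran from 759 through 907 to 1044 CPM. CAA lay below each gingiva library, while in COSCC 1 library reached into the gingiva range, and the 2 tumors overlapped at their edges. The log2 difference was -1.11 ± 0.25 (SE, edgeR adjusted p = 0.0143). Leaving out CAA replicate 3 raised the adjusted p to 0.0570 (edgeR), and without any of the other 22 libraries the call held.

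Rank 53, ENSCAFG00000005734, was also lower in CAA than in COSCC. The CAA libraries had 1024, 532, 1221, 1505 and 699 CPM, and COSCC ran from 941 through 2272 to 2943 CPM. Gingiva ran from 909 through 1214 to 1545 CPM, so that 8 of the 11 COSCC libraries lay above all gingiva libraries. The log2 difference between the tumors was -1.24 ± 0.35 (SE, edgeR adjusted p = 0.0335). The call was lost without CAA replicates 1, 2, 3 or 5 or COSCC replicate 9, with edgeR adjusted p-values of 0.0670, 0.102, 0.0844, 0.0991 and 0.0521.

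The gene that was higher in CAA was rank 59, ENSCAFG00000015819. The CAA libraries had 1361, 1723, 2434, 1126 and 927 CPM, COSCC ran from 247 through 479 to 1272 CPM, and gingiva from 578 through 1091 to 2151 CPM. Of the CAA libraries 4 were within the gingiva range and replicate 3 above it, whereas 6 COSCC libraries were below all gingiva libraries. Of the COSCC libraries, 10 lay below all 5 CAA libraries. The log2 difference was 1.14 ± 0.29 (SE, edgeR adjusted p = 0.0216). Without CAA replicate 2 or 3 the edgeR adjusted p was 0.0588 or 0.0988.

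The other genes called were ranks 43, 77 and 88, with log2 differences of -1.03 ± 0.31, -1.11 ± 0.33 and -2.31 ± 0.73 (SE, edgeR adjusted p = 0.0444, 0.0409 and 0.04997). Rank 88 had 204, 67.2, 199.6, 254 and 16.9 CPM in CAA replicates 1 to 5 and 86.4 to 1546 CPM in COSCC. Among COSCC libraries, replicates 1, 3, 4 and 6 were within the CAA range and the other 7 above it. These 3 calls lie close to the threshold. Each was lost without CAA replicate 1, 2, 3 or 5 and without COSCC replicate 8, 9, 10 or 11. The calls of ranks 43 and 88 were also lost without COSCC replicates 2 or 7 or gingiva replicate 1, that of rank 77 without COSCC replicate 4, and that of rank 88 without gingiva replicates 2, 4, 5, 6 or 7. The edgeR adjusted p-values then lay between 0.0505 and 0.135 for rank 43, 0.0508 and 0.129 for rank 77, and 0.0536 and 0.127 for rank 88. In CPM, the ranges of CAA and COSCC did not overlap for 1 gene, rank 71, which was higher in CAA, against 0.814% of all genes, and 0 were lower, against 0.261%. Rank 71 had 1026 to 1469 CPM in CAA and 371 to 953 CPM in COSCC, and the ranges overlapped on TMM-scaled CPM.

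Large differences between the tumors did not always pass. For rank 2 CAA minus COSCC was -3.66 ± 1.27 on the log2 scale (SE, edgeR adjusted p = 0.0660), rank 50 of -4.53 ± 1.69 (0.0831) and rank 65 of -3.97 ± 1.44 (0.0770), while rank 4 had 2.10 ± 1.23 (0.252). For ranks 39 and 41, the log2 differences between the tumors were 0.06 ± 0.72 and 0.06 ± 0.78 (SE). The count of 6 depended on single libraries, and the share of all genes called moved with it. Without COSCC replicates 1, 3, 5 and 6 it was 11, 14, 12 and 10, beside 11.6%, 14.5%, 14.5% and 12.5% of all genes. Without COSCC replicates 8, 9, 10 and 11 it was 3, 2, 3 and 3, beside 6.31%, 5.35%, 6.16% and 6.0%. Without CAA replicates 1, 2, 3 and 5 it was 2, 1, 0 and 2, beside 4.81%, 1.97%, 1.69% and 2.12%. Without CAA replicate 4 it was 21, beside 12.9%. An unadjusted p under 0.05 was found for 34 of the 100 genes with all libraries, beside 29.9% of all genes, and for 24 without CAA replicate 3, beside 22.1%. With all libraries DESeq2 called 23 of the 100 genes, beside 18.5% of all genes, and limma voom with quality weights 43, beside 37.6%. With maxillary tumors alone edgeR called 22, beside 14.4%. Of 32 alternatives, the share of the 100 genes called was above that of all genes in these last 3 and without CAA replicate 4, and below it in 28.

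**Figure D5:**
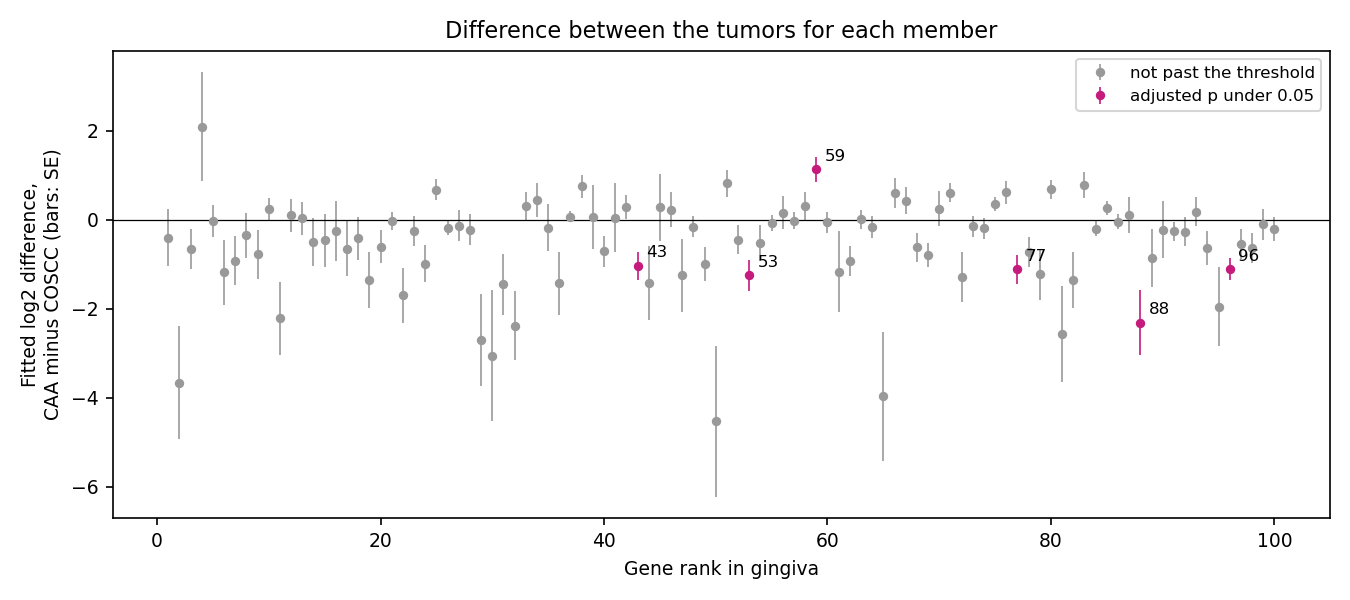
Fitted log2 difference between the tumors, CAA minus COSCC (vertical axis, bars are SE), for each of the 100 genes by gingiva rank (horizontal axis). Magenta points passed an adjusted p of 0.05: ranks 43, 53, 77, 88 and 96 lie below 0 and rank 59 above it, while ranks 2, 50 and 65 have larger differences with wide errors.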

How the data were processed

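Per the labels' protocols, total RNA was depleted of ribosomal RNA and made into directional libraries. The authors deposited raw counts per Ensembl gene. STAR and canFam3 are named, without versions, per the submitters' processing notes. The counting program and its use of strand are not given in the sources used here, so overlapping or near-identical genes may share reads. Each of the 23 columns carries the library name of 1 sample, and 0 columns had no sample.

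The 100 genes follow from total-count CPM. Members and lists were chosen with earlier results of these data known. Planned gene lists and marker checks were not evaluated, since 0 of 30951 identifiers matched the RefSeq gene table (UU_Cfam_GSD_1.0). The naming rule covers the 15 most abundant genes and the 8 lowest and 8 highest fitted differences of each tumor from gingiva. It also covers up to 10 genes per direction called between the tumors, and the 3 genes on each side of rank 100. Only some of these genes, those the comparisons turn on, are described one by one. Ranks 34, 55, 71 and 92 fall outside the rule and were chosen after their values were seen. At most 2 identifiers per direction are printed for a comparison.

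Differences come from edgeR 4.0.16 (R 4.3.3), quasi-likelihood test, TMM, filterByExpr, a mean per group over all 23 libraries. The SE is the absolute log2 difference over the square root of F. The procedure was also run on simulated data, for CAA against COSCC alone, with fold changes that were equal in all CAA libraries. Changes confined to single libraries were not simulated. The outcome is not given here, so nothing is read from it. Alternatives were DESeq2 1.42.0, limma 3.58.1 (voom with quality weights), other scalings, filters, covariates and subsets of libraries.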

Additional observations from a re-analysis of the deposited data

Results flagged for a closer look

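Within gingiva and within CAA, a single library standing far from its group was looked for in 32 sets of values. Dixon's 95% criterion was passed in 2 of them, beside 1.6 that chance alone would give. Both were in CAA replicate 4, which had 477 CPM of the rank 2 gene against 47.3 CPM in the next CAA library, and 12.7 CPM of the rank 65 gene against 3.36 CPM. The same library had the largest CAA share of counts in the 100 genes, 28.5%. Whether these values have a common source was not tested.

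For 6 genes the difference from gingiva was unequal in CAA and COSCC, by the direct edgeR test of CAA against COSCC. The log2 differences, CAA minus COSCC, were -1.03 for rank 43, -1.24 for rank 53, 1.14 for rank 59, -1.11 for rank 77, -2.31 for rank 88 and -1.11 for rank 96. All 6 kept their direction under each of the 32 alternatives run, but stayed past the threshold under 15, 23, 28, 19, 11 and 30 of them, in that order of rank. The highest edgeR adjusted p over the alternatives was 0.296, 0.259, 0.103, 0.387, 0.512 and 0.199.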

How the results depend on the processing

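The count of genes called between CAA and COSCC, 6 of 100, was 2 without a low-count filter (3.52% of all genes called), 2 with the two-letter code of the labels as covariate (6.78%), 1 with the compared groups alone (2.82%), 22 with maxillary tumors (14.4%), 23 with DESeq2 (18.5%) and 43 with limma voom (37.6%). It ran from 0 to 21 when each library was left out. With a replicate block edgeR called 0 (0.980% of all genes), with 10 at an unadjusted p under 0.05 (16.8%). Replicate numbers 8 to 11 occur only in COSCC, so with the block those libraries add nothing to any difference between groups. Its counts therefore rest on fewer libraries than the main fit. The labels do not say that samples of the same replicate number come from the same dog. Among 17 same-numbered pairs, 5 had deviations correlated above 0.1, and 3 of 19 libraries correlated best with their own number. Correlations between different tissues cannot show whether samples share a dog, so whether the numbers pair them was not settled. Against gingiva the block gave 30 genes in CAA (22% of all genes) and 38 in COSCC (21.4%). The CAA count, 35, was 54 with the compared groups alone (35.0% of all genes), 53 with DESeq2 (31.0%) and 68 with limma voom (44.1%), and 25 to 40 with a library left out (14.5% to 27.1%). The COSCC count, 47, was 54 with DESeq2 (38.6%) and 55 with limma voom (42.6%), and ran from 36 to 50 with a library left out (25.7% to 37.8%). A choice of 50 or 200 genes moved the gingiva share to 27.9% or 39.9%, the CAA share to 16.4% or 27.1% and the COSCC share to 19.3% or 29.7%. With a library left out of the group mean (chosen after seeing the data) or of the choice of genes, shares ran from 32.1% to 34.1% in gingiva, 18.7% to 21.7% in CAA and 22.9% to 24.4% in COSCC. The cause of these changes was not tested. All 440 recomputed differences, of genes printed by identifier or called between the tumors, kept their direction. These genes were picked for large differences or for being called, and most alternatives leave out 1 library. A kept direction was therefore likely beforehand. A denominator without mitochondrially encoded genes was not run, as no identifier has a name. The lowest count of any of the 100 genes was 5, so counting error limits few values.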
